A study of Mus musculus with 4 samples.

Results

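Cells that carried both insulin and glucagon transcripts, called Ins2+Gcg+ cells below, were described in single-cell RNA-seq of mouse pancreatic islets. A barcode counted as a cell when it had at least 500 genes and at most 20% of its unique molecular identifiers (UMIs, each standing for 1 captured transcript) from mitochondrial genes. Such a cell was a member when Ins2 gave at least 5%, Gcg at least 1% and Sst under 1% of its UMIs. The rule found 300 of 16146 cells (1.86%), from 19987 barcodes. These 3 hormone genes therefore chose the cells, and their levels are given as a description only.

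The islets came from 5-week-old mice of the NOD strain, which develops autoimmune diabetes, in 2 groups of 2 samples: Xbp1β-/-, in which Xbp1 was deleted, and Xbp1fl/fl, floxed mice that the submitters call wild type. Mice of both groups received tamoxifen by intraperitoneal injection, the agent that switches on the Cre recombinase, and no source used here names the promoter that drives Cre. Islets were picked by hand, kept in culture overnight, dissociated with accutase and run on the 10x Genomics droplet platform. The deposited matrix pools 4 libraries, numbered 1 to 4 by the barcode suffix, and nothing ties a number to a sample, so every value belongs to a numbered library, none to a genotype, and no test between groups was made.

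Beta cells make insulin and alpha cells make glucagon, and in the mature islet each is known for silencing the hormone of the other. Insulin is encoded in the mouse by Ins1 and Ins2, and glucagon is cut from the precursor encoded by Gcg. Cells with both hormones are known from the embryonic pancreas and from adult islets after near-total loss of beta cells, where alpha cells begin to make insulin. A droplet that holds a beta cell together with an alpha cell gives the same pair of transcripts, and so does a droplet that takes up free hormone RNA from broken cells.

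Ins2 lies on chr7:142678656-142743381 and Gcg on chr2:62474530-62483650, both on the minus strand of GRCm38. The proximal promoters of the hormone genes with an entry in the RefSeq table (GRCm38.p6) are shown because these genes encode the hormones by which the cells are described. The 250 bases before the start of Gcg are chr2:62483654-62483903, minus strand, and those of Ins1 are chr19:52264047-52264296, plus strand. Capitals mark CAGATG or its reverse complement CATCTG, letters of the E-box type that NEUROD1 with a partner is known to bind in both genes.
Gcg promoter: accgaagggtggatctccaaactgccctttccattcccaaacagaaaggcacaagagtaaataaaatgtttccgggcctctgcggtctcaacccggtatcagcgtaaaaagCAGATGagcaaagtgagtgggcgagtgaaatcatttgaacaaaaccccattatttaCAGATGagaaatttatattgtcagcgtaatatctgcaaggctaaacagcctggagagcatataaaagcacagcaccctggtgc
Ins1 promoter: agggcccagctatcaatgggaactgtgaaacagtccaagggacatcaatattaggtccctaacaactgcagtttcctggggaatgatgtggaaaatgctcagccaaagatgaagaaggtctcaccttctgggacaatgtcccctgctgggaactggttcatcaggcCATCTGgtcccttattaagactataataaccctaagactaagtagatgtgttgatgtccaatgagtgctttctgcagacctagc
The Gcg window held 2 matches, starting at -139 and -83 from the gene's start, and the Ins1 window held 1, starting at -84. On both strands, 4745 of 32851 promoter windows of this length (14.4%) held CAGATG, so the match is common and describes letters only.

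Ins2+Gcg+ cells were found in every library, at shares of cells that differed more than counting error. They were 17 of 3635 cells in library 1 (0.468%, 95% interval 0.273 to 0.748%), 187 of 5268 in library 2 (3.55%, 3.07 to 4.09%), 21 of 3455 in library 3 (0.608%, 0.377 to 0.928%) and 75 of 3788 in library 4 (1.98%, 1.56 to 2.48%). Libraries 2 and 4 also held larger shares of cells with a single hormone. Cells with Ins2 at 5% or more and Gcg under 1%, called insulin cells, were 16.9%, 63.5%, 23.2% and 59.9% of libraries 1 to 4. Cells with Gcg at 5% or more and Ins2 under 5%, called glucagon cells, were 7.51%, 15.6%, 9.49% and 20.1%.

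Set against the insulin-bearing cells alone, the spread between libraries narrowed. Of cells with Ins2 at 5% or more and Sst under 1%, the double-hormone class was 3.01% (1.76 to 4.77%), 5.61% (4.85 to 6.45%), 2.97% (1.85 to 4.50%) and 3.37% (2.66 to 4.21%) in libraries 1 to 4. The intervals of libraries 1, 3 and 4 overlapped, and that of library 2 lay above all 3. Of cells with Gcg at 1% or more and Sst under 1%, it was 5.88%, 19.4%, 6.19% and 9.27%. These intervals are exact (Clopper-Pearson) and, like all below, cover counting error only.

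Compared with the number far below it, few insulin-bearing cells lay near the Gcg threshold. Of cells with Ins2 at 5% or more and Sst under 1%, 6400 had Gcg under 0.3% of UMIs, 130 had 0.3 to 1%, 80 had 1 to 3% and 220 had 3% or more. In library 2 these bands held 3048, 98, 54 and 133 cells, with no gap at the threshold. The lowest Gcg share inside the rule was 1.22%, 1.03%, 2.40% and 1.41% in libraries 1 to 4, and the highest just outside it was 0.916%, 0.999%, 0.934% and 0.793%. The band from 1 to 1.25% held 13 cells and that from 0.8 to 1% held 18, most of them in library 2 (12 and 16). On the Ins2 side, 19 cells had 5 to 6.25% and 39 had 4 to 5%, again mostly in library 2 (16 and 32).

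**Figure D1:**
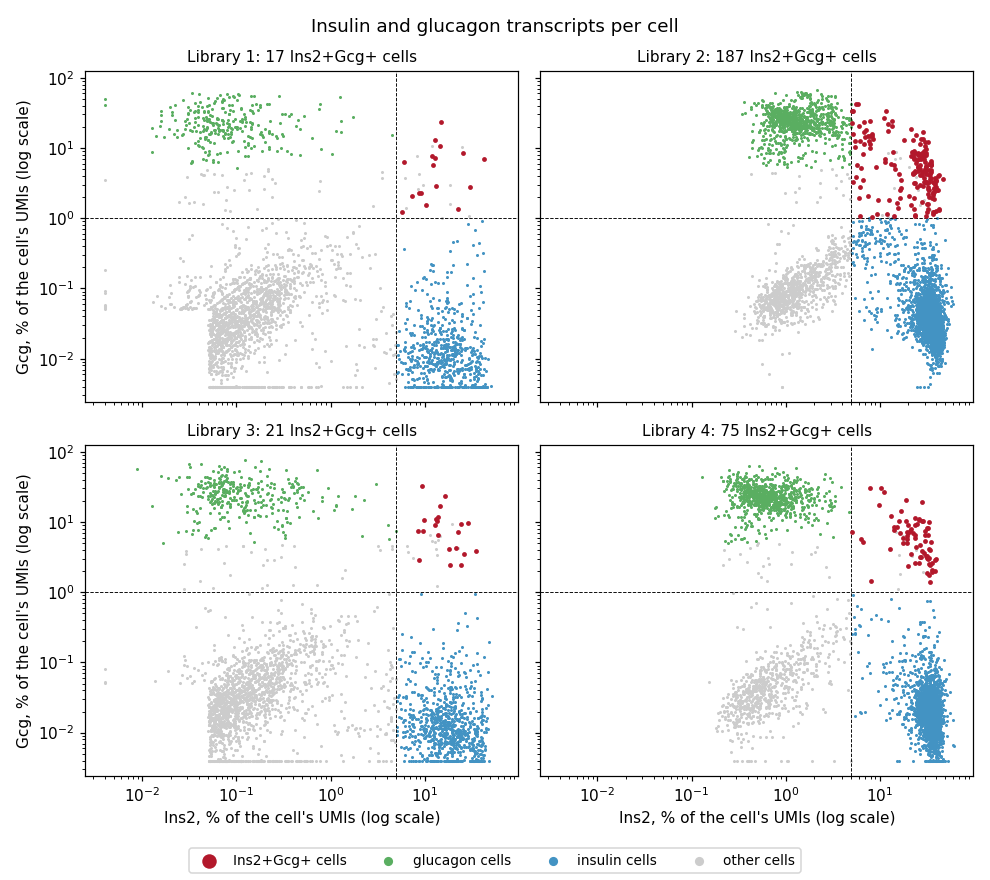
Ins2 (x axis) and Gcg (y axis) as percent of each cell's UMIs, both on log scales, in libraries 1 to 4; shares under 0.004% are drawn at 0.004%, only cells with either hormone at 0.05% or more are drawn, and dashed lines mark 5% Ins2 and 1% Gcg. Ins2+Gcg+ cells (red) lie above the mass of insulin cells (blue) in every library, with some insulin cells in between, most of them in library 2. In library 2 a second group of Ins2+Gcg+ cells joins the right edge of the glucagon cells (green).

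The hormone content lay between that of the single-hormone classes, as the rule allows. Median Gcg in Ins2+Gcg+ cells was 5.65%, 4.81%, 7.47% and 5.85% of UMIs in libraries 1 to 4, against 20.8%, 23.9%, 24.6% and 22.8% in glucagon cells. Median Ins2 was 12.8%, 25.9%, 14.7% and 24.8% in Ins2+Gcg+ cells, against 16.9%, 35.5%, 17.9% and 34.8% in insulin cells. Both hormones were thus abundant, and the Ins2 level followed that of the library's own insulin cells. Levels of other genes are in CPM, the UMIs of a gene scaled to a fixed total of UMIs. Ins1, which the rule did not use, stood at 62450, 129029, 82703 and 119018 CPM in the summed Ins2+Gcg+ cells, against 92417, 160826, 98160 and 153271 CPM in insulin cells. Iapp, which encodes amylin, stood at 75075, 42466, 55045 and 39988 CPM in Ins2+Gcg+ cells, against 95722, 50723, 82159 and 52901 CPM in insulin cells. Both genes were lower than in insulin cells in all 4 libraries.

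The total of UMIs per cell was next set beside that of single-hormone cells. Ins2+Gcg+ cells had medians of 46843, 35958, 56638 and 39209 UMIs in libraries 1 to 4. Insulin cells had 45639, 42178, 45660.5 and 37400, and glucagon cells had 12152, 12866.5, 13671.5 and 11569. The double-hormone cells therefore held about as many UMIs as insulin cells, more in libraries 1, 3 and 4 and fewer in library 2, and more than glucagon cells in every library.

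Every possible pair of 1 insulin cell and 1 glucagon cell of the same library was then added up, which gave 167895, 2741260, 262400 and 1726709 sums. Of these, 70.5%, 83.5%, 67.4% and 87.6% met the rule for Ins2+Gcg+ cells. The median total of the Ins2+Gcg+ cells was 0.80, 0.649, 0.937 and 0.796 times the medians of the qualifying sums, which were 58573, 55378, 60457 and 49253 UMIs. In libraries 1 to 4, 12 of 17, 140 of 187, 15 of 21 and 51 of 75 Ins2+Gcg+ cells lay below the median sum. Among cells with at least 10000 UMIs, a limit set after seeing the data, the ratio was 0.813, 0.894, 0.952 and 0.850. The median Gcg share was 5.65%, 4.81%, 7.47% and 5.85% in the cells and 4.66%, 5.63%, 5.68% and 5.40% in the sums.

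**Figure D2:**
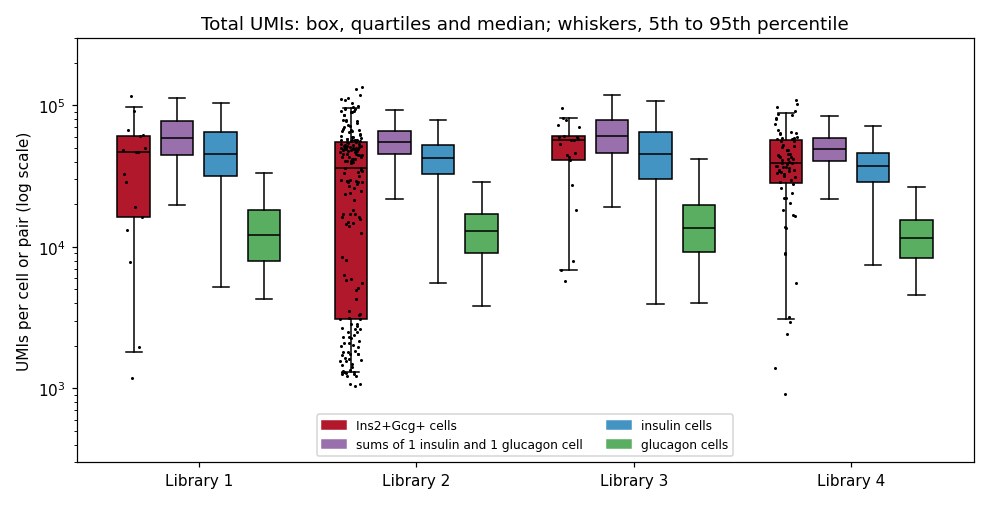
Total UMIs per Ins2+Gcg+ cell (red, black points are single cells), per sum of 1 insulin and 1 glucagon cell that met the rule (purple), per insulin cell (blue) and per glucagon cell (green), on a log scale, in libraries 1 to 4; boxes give quartiles and median, whiskers the 5th to 95th percentile. The median of the Ins2+Gcg+ cells lies below that of the sums in each library, and library 2 has a separate group of cells with few UMIs.

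Library 2 held a shallow group that differed from its deeper Ins2+Gcg+ cells. Ins2+Gcg+ cells with under 10000 UMIs numbered 3, 61, 3 and 8 in libraries 1 to 4. In library 2 these 61 cells had a median of 2040 UMIs, 817 genes and 11.9% mitochondrial UMIs, against 49535.5 UMIs, 5784.5 genes and 2.22% in the 126 deeper ones. Malat1, a nuclear transcript whose share is used as a sign of damaged cells, stood at 82954 CPM in the shallow cells and 8579 CPM in the deeper ones. Median Ins2 was 8.24% and Gcg 5.78% in the shallow cells, against 29.7% and 4.63% in the deeper ones. The part of damaged cells in this group was not tested. Insulin and glucagon cells of library 2 under 10000 UMIs also had high mitochondrial shares, at medians of 9.41% and 7.37%. Their deeper counterparts had 1.79% and 3.16%. Malat1 stood at 47564.6 and 59026.5 CPM in these shallow insulin and glucagon cells, against 9471 and 31956 CPM in the deeper ones.

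Hormone RNA in cells of other types was highest in library 2 and next in library 4, as was the share of Ins2+Gcg+ cells. Libraries 2 and 4 also held the larger shares of insulin cells and of glucagon cells, and no link between these orders was tested. In cells with endothelial markers, which should make neither hormone, median Ins2 was 0.0595%, 1.54%, 0.0686% and 0.731% of UMIs in libraries 1 to 4, and median Gcg 0.0213%, 0.121%, 0.0211% and 0.0553%. Cells with leukocyte markers had median Ins2 of 0.0888%, 1.72%, 0.114% and 0.621%. The median Gcg share in endothelial-marker cells was thus under the 1% limit in every library, and their median Ins2 share was under the 5% limit.

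Barcodes under 500 genes were described next. Their median mitochondrial share was 60.0%, 2.16%, 76.9% and 63.4% of UMIs in libraries 1 to 4. How far these barcodes are almost empty droplets or damaged cells was not tested. In library 2 they had medians of 649 UMIs, 29.5% Ins2 and 2.43% Gcg, so that a typical one passed both hormone limits. In libraries 1, 3 and 4 they had medians of 0.815%, 0.998% and 7.31% Ins2 and of 0.338%, 0.260% and 0.470% Gcg. In library 2 the Gcg median was 8.24% of the Ins2 median in these barcodes, 7.85% in endothelial-marker cells and 7.64% in leukocyte-marker cells. It was 70.1% in the shallow Ins2+Gcg+ cells and 15.6% in the deeper ones, with 46.7%, 42.7% and 21.8% in the deeper ones of libraries 1, 3 and 4. The shallow Ins2+Gcg+ cells of libraries 1, 3 and 4 (3, 3 and 8 cells) had 26.2%, 79.7% and 62.8%. The barcodes under 500 genes, endothelial-marker and leukocyte-marker cells had 35.8 to 42.4% in library 1, 26.0 to 30.8% in library 3 and 6.43 to 7.57% in library 4. With UMIs summed over cells in place of medians, the deeper Ins2+Gcg+ cells held 5.03% Gcg and 14.4% Ins2 in library 1 and 8.82% and 17.4% in library 3. The barcodes under 500 genes held 2.52% Gcg and 1.13% Ins2 in library 1 and 1.94% and 2.20% in library 3 by the same count. In libraries 1 and 3, whether the deeper Ins2+Gcg+ cells had more or less Gcg per Ins2 than these barcodes thus depended on the summary. By summed UMIs, the deeper cells held 5.30% Gcg and 31.4% Ins2 in library 2 and 6.46% and 27.6% in library 4. The barcodes under 500 genes held 2.74% and 20.8% in library 2 and 1.69% and 8.13% in library 4. In libraries 2 and 4 the deeper cells thus had more Gcg per Ins2 by either summary. The rule chose the cells on both shares, so the part of free RNA cannot be read from this ratio and was not tested.

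Alpha cell genes that the rule did not use were present in Ins2+Gcg+ cells at levels between those of the single-hormone classes. Slc7a2, a transporter gene for arginine and other cationic amino acids, stood at 119.6, 106, 183 and 99.0 CPM in Ins2+Gcg+ cells of libraries 1 to 4. It stood at 299.6, 378, 353 and 341 CPM in glucagon cells and at 57.2, 39.8, 65.9 and 27.2 CPM in insulin cells. The exact Poisson interval of the Ins2+Gcg+ level was 95.5 to 148 CPM in library 1, from 85 UMIs, and 98.0 to 114 CPM in library 2, from 722 UMIs. The level of the Ins2+Gcg+ cells lay between those of the classes in every library.

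Irx2, a homeobox gene of alpha cells, gave 21.1, 26.7, 40.2 and 31.7 CPM in Ins2+Gcg+ cells, against 106, 106, 89.3 and 108 CPM in glucagon cells and at most 8.41 CPM in insulin cells. These levels rest on 15, 183, 42 and 101 UMIs. Pou3f4, a transcription factor gene of alpha cells, gave 9.85, 9.79, 12.4 and 13.8 CPM in Ins2+Gcg+ cells, against 46.8, 46.1, 44.0 and 45.3 CPM in glucagon cells and at most 0.424 CPM in insulin cells. Irx1, a gene of the same homeobox family as Irx2, gave 5.63, 23.5, 31.6 and 30.2 CPM in Ins2+Gcg+ cells, against 73.8, 88.6, 73.4 and 91.0 CPM in glucagon cells and at most 1.3 CPM in insulin cells. Pou3f4 rested on 7, 67, 13 and 44 UMIs and Irx1 on 4, 161, 33 and 96. In library 1 the interval of Irx1 was 1.53 to 14.4 CPM, so its distance from insulin cells is poorly known there. All 3 factors lay between the classes in each library.

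To compare markers, each was given a position, 0 being its level in insulin cells and 1 its level in glucagon cells of the same library. Of the 20 alpha markers listed, 16 were at least 2-fold higher in glucagon than in insulin cells in all libraries, and 14 of these 16 lay between the classes in every library. Their median position was 0.196, 0.209, 0.278 and 0.217 in libraries 1 to 4. Gcg itself, which the rule used, had positions of 0.224, 0.225, 0.369 and 0.266. In the pair sums, glucagon cells supplied 0.210, 0.231, 0.230 and 0.241 of all UMIs. The markers' median position lay close to this supplied share, below it in libraries 1, 2 and 4 and above it in library 3. The position itself depended on the scaling. Its median over libraries, 0.213 as reported, was 0.319 when the total omitted the hormone genes and 0.290 when CPM was averaged over cells. The supplied share counts all UMIs and was not recomputed on those scales, so closeness was not compared there.

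Positions are given for 4 of the alpha markers that had at least 50 UMIs in the Ins2+Gcg+ cells of every library. Slc7a2 had positions of 0.257, 0.195, 0.407 and 0.229, and Gc, which encodes the vitamin D binding protein, had 0.185, 0.161, 0.135 and 0.203. Etv1, a transcription factor gene, had 0.184, 0.225, 0.110 and 0.252, and Sphkap, which encodes an anchor protein of protein kinase A, had 0.0676, 0.100, 0.226 and 0.216. Between the larger libraries 2 and 4 the intervals of Slc7a2, Gc and Etv1 overlapped. Those of Sphkap were apart, at 0.070 to 0.131 and 0.168 to 0.267. The positions of the 4 markers spread most in library 3, with its 21 cells. Ttr, the transthyretin gene, was not placed because it was not 2-fold apart, with 2251 and 2144 CPM in insulin cells of libraries 1 and 3.

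Beta cell genes lay, at the median, nearer to their level in insulin cells than to that in glucagon cells. Mafa, a factor of mature beta cells, stood at 402, 551, 355 and 340 CPM in Ins2+Gcg+ cells, against 353, 688, 389 and 499 CPM in insulin cells and 1.76, 23.3, 18.6 and 8.53 CPM in glucagon cells. Nkx6-1, a factor that keeps beta cell identity, stood at 155, 128, 135 and 95.2 CPM in Ins2+Gcg+ cells, against 153, 158, 164 and 126 CPM in insulin cells. Pdx1, a master factor of the pancreas and of beta cells, stood at 142, 55.2, 83.2 and 56.3 CPM, against 134, 74.4, 139 and 66.9 CPM in insulin cells. For all 3 factors, Ins2+Gcg+ cells were lower than insulin cells in libraries 2, 3 and 4 and slightly higher in library 1.

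Of 20 beta markers, 18 were at least 2-fold apart in all libraries, with median positions of 0.155, 0.208, 0.197 and 0.275, and 9 of the 18 lay between the classes in every library. Pcsk1, the convertase that opens proinsulin, had positions of 0.316, 0.306, 0.200 and 0.457, and G6pc2, the islet glucose-6-phosphatase, had 0.151, 0.274, 0.376 and 0.408. Glp1r, the receptor of the incretin GLP-1, had 0.118, 0.189, 0.270 and 0.115. Npy, which encodes neuropeptide Y, had the widest spread of those with at least 50 UMIs, at 0.245, 0.405, 0.625 and -0.334. Alpha and beta markers thus gave similar median positions, and neither set sat at the insulin or the glucagon end.

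**Figure D3:**
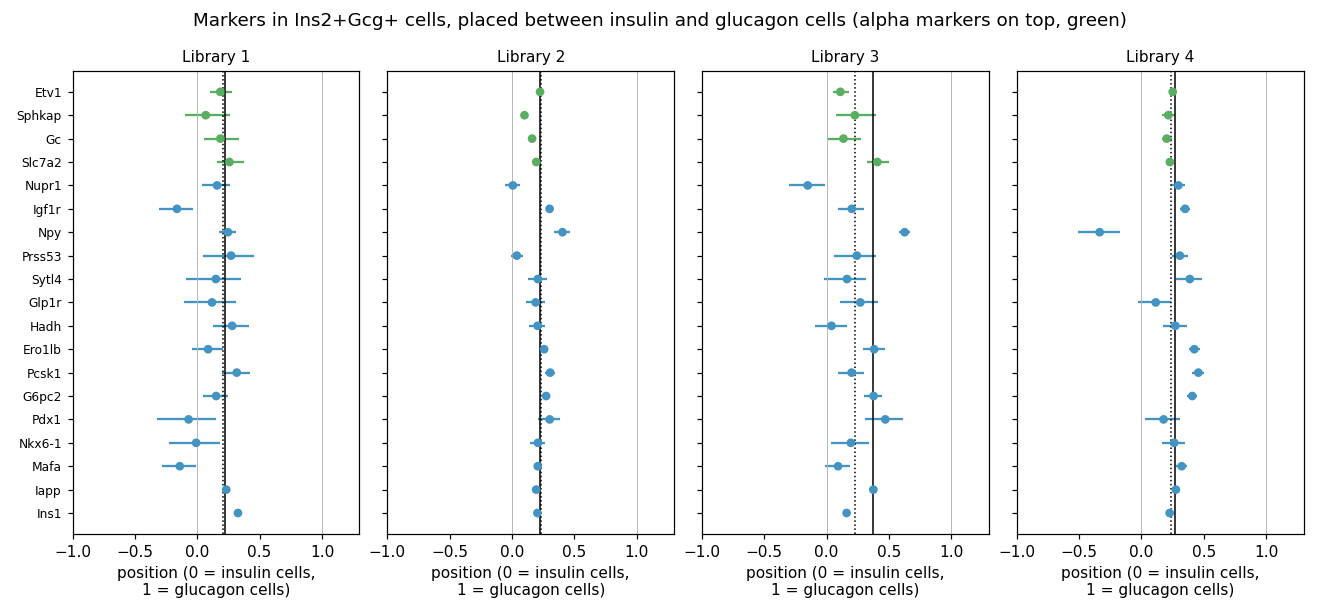
Position of 4 alpha (green) and 15 beta (blue) markers with at least 50 UMIs in Ins2+Gcg+ cells, on a scale with insulin cells at 0 and glucagon cells at 1; bars are 95% Poisson intervals of the Ins2+Gcg+ level, the solid line is the position of Gcg and the dotted line the share of UMIs from the glucagon cell in pair sums. Most markers of both kinds lie between 0 and 1, at varying distance from the 2 lines, which stand at 0.369 and 0.230 in library 3. Below 0 are Igf1r (-0.163), Mafa (-0.141), Pdx1 (-0.070) and Nkx6-1 (-0.009) in library 1. Nupr1 (-0.152) in library 3 and Npy (-0.334) in library 4 also lie below 0, and Npy lies at 0.625 in library 3.

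Within the Ins2+Gcg+ cells, the alpha marker level went with the Gcg share. The 16 placed alpha markers, summed, gave 373, 612, 955 and 1312 CPM in library 2 in cells with 1 to 2%, 2 to 5%, 5 to 10% and over 10% Gcg (30, 65, 51 and 41 cells), between 240 CPM in insulin cells and 2925 CPM in glucagon cells. In library 4 the same bands gave 379, 655, 1050 and 1058 CPM (6, 25, 28 and 16 cells), between 213 and 2875 CPM. In library 3 the 3 bands from 2% up gave 758, 1365 and 1434 CPM, from 7 cells each. In library 1 the 4 bands gave 604, 950, 869 and 1269 CPM from 3 to 6 cells each, so the order was not strict there.

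The beta marker set moved the other way in library 2, with 3631, 3476, 3172 and 2173 CPM over the 4 bands, below 4150 CPM in insulin cells. In library 4 it gave 2384, 2883, 2568 and 2041 CPM, against 3735 CPM in insulin cells. In library 1 it gave 2151, 4452, 5465 and 2682 CPM, against 4392 CPM in insulin cells, and in library 3 the bands from 2% up gave 3105, 4016 and 2316 CPM, against 4371 CPM. The beta set thus fell from band to band in library 2 only. Across single cells, Spearman's rho between the Gcg share and the summed alpha markers was 0.331, 0.621, 0.643 and 0.445 in libraries 1 to 4 (17, 187, 21 and 75 cells). The cells of a library share its free RNA and the shares have 1 total as denominator, so rho is a description only.

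**Figure D4:**
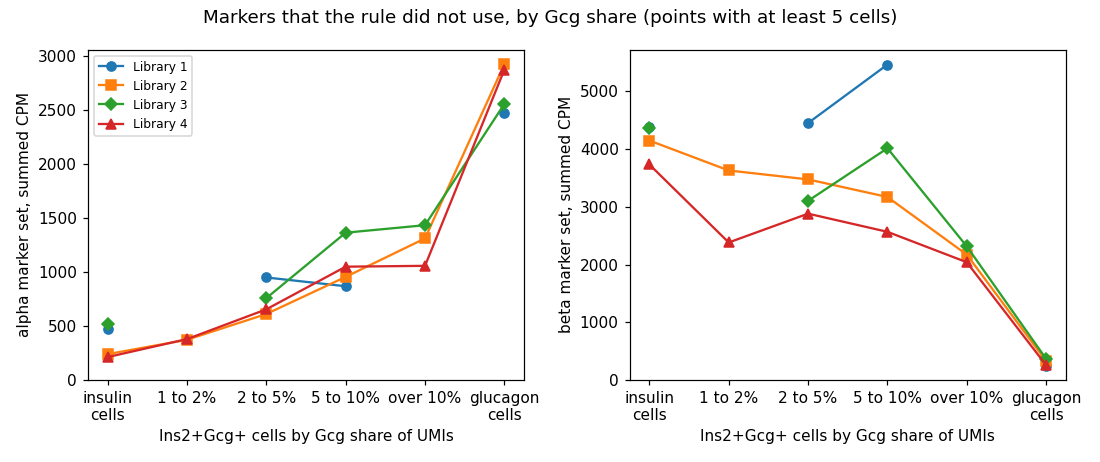
Summed CPM of 16 alpha markers (left) and 16 beta markers (right) in insulin cells, in Ins2+Gcg+ cells by their Gcg share, and in glucagon cells, with 1 line per library and points of at least 5 cells. The alpha set climbs with the Gcg share in libraries 2, 3 and 4, and the beta set falls from band to band in library 2 only, to 2173 CPM at over 10% Gcg.

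Alpha and beta factors were next counted in the same cell, after each cell was thinned to 5000 UMIs and shallower cells were left out (2, 54, 0 and 5 of the Ins2+Gcg+ cells). At least 1 UMI of the alpha factors Irx1, Irx2 or Pou3f4 was found in 2 of 15, 36 of 133, 12 of 21 and 15 of 70 Ins2+Gcg+ cells (13.3%, 27.1%, 57.1% and 21.4%). The share was 64.2%, 64.4%, 58.5% and 64.7% in glucagon cells and 2.91%, 0.815%, 3.38% and 1.05% in insulin cells. In endothelial-marker cells it was 0% (0 of 119 cells, 95% interval up to 3.05%), 2.97%, 0.763% and 1.64%. The share in Ins2+Gcg+ cells was above that background in libraries 2, 3 and 4, with lower 95% bounds of 19.7%, 34.0% and 12.5%. In library 1 the lower bound was 1.66%, and the interval overlapped that of the background.

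At least 1 UMI of the beta factors Mafa, Nkx6-1 or Pdx1 was found in 86.7%, 84.2%, 66.7% and 77.1% of Ins2+Gcg+ cells, against 82.9%, 89.6%, 82.9% and 81.7% of insulin cells and 5.76%, 21.0%, 9.63% and 10.1% of glucagon cells. Factors of both kinds were found in 6.67%, 22.6%, 28.6% and 17.1% of Ins2+Gcg+ cells, against 1.71%, 0.659%, 2.44% and 0.776% of insulin cells and 3.29%, 13.0%, 5.32% and 6.89% of glucagon cells. Without thinning, both kinds were found in 64.7%, 61%, 85.7% and 73.3% of Ins2+Gcg+ cells. Alpha and beta factors were thus met in 1 barcode more often than in either single-hormone class in libraries 2, 3 and 4. In library 1 the interval of the Ins2+Gcg+ cells, 0.169 to 31.9%, overlapped those of both classes. Thinned to 2000 UMIs, the Ins2+Gcg+ cells stood at 6.67%, 10.8%, 9.52% and 5.48%, against 0.741%, 2.08%, 0.926% and 1.71% of glucagon cells, and the intervals were apart in library 2 only. At that depth they were 1.17 to 30.4% and 0.191 to 2.68% in library 3, and 1.51 to 13.4% and 0.915 to 2.91% in library 4.

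Across all genes, Ins2+Gcg+ cells were compared with insulin cells by the log2 ratio of levels after adding 10 CPM to each, over 2955 genes that reached 50 CPM on either side in some library. Of these, 10 were at least 2-fold higher in all 4 libraries (0.338% of genes tested) and 0 were at least 2-fold lower (0%). By direction alone, 681 were higher (23%) and 310 lower (10.5%) in all libraries, against 703 and 952 of 4831 when the 7 hormone genes were left out of the total. Without library 1, 16 genes passed the 2-fold limit upward, with a call then needing fewer libraries. No p-value was computed, since the libraries are not replicates of a labelled group.

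The genes higher than in insulin cells were genes at a high level in glucagon cells. Tmsb15b2, a thymosin beta gene, stood at 298, 407, 779 and 478 CPM in Ins2+Gcg+ cells, against 57.0, 51.4, 66.6 and 37.8 CPM in insulin cells, a median log2 ratio of 3.06. It stood at 1155 to 1502 CPM in glucagon cells. Gpx3, a secreted glutathione peroxidase, stood at 619, 294, 803 and 356 CPM in Ins2+Gcg+ cells, against 300, 29.1, 360 and 32.4 CPM in insulin cells (median log2 ratio 2.05). Lpl, lipoprotein lipase, stood at 115, 233, 145 and 235 CPM in Ins2+Gcg+ cells, against 17.9, 105, 22.5 and 90.4 CPM in insulin cells (1.73).

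Also past the limit were Higd1a (2.20), Basp1 (1.83), Tmsb15b1 (1.79), Dbpht2 (1.75), Id1 (1.55) and Camk2d (1.15), each at the median log2 ratio given in brackets. Camk2d, which encodes a calcium-dependent kinase subunit, was named after its value was seen. Etv1 (1.66), Eef1a2 (1.5) and Pappa2 (1.39) were higher in every library without reaching 2-fold in each. All of these named genes were higher in glucagon cells than in Ins2+Gcg+ cells in all 4 libraries. The 12 genes named on the lower side were lower in every library by median log2 ratios of -0.60 to -0.44, and included Shisal2b (-0.60), G6pc2 (-0.51), Pcsk1 (-0.50) and Ero1lb (-0.44), an oxidoreductase gene of the beta cell endoplasmic reticulum.

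Against glucagon cells, 52 of 3415 genes were at least 2-fold higher (1.52%) and 66 at least 2-fold lower (1.93%) in all 4 libraries. By direction alone, 340 were higher (9.96%) and 1796 lower (52.6%), against 1600 and 1249 of 4976 when the hormone genes were left out of the total. The median of all genes was 0.05 on the log2 scale with that choice and -0.33 without it. Without library 3, 113 genes passed the 2-fold limit downward, with a call then needing fewer libraries.

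The genes higher than in glucagon cells were led by beta cell genes. Mafa had a median log2 ratio of 4.16. Prlr, the prolactin receptor gene, stood at 186, 298, 187 and 203 CPM in Ins2+Gcg+ cells, against 2.27, 8.88, 10.4 and 4.26 CPM in glucagon cells (3.95). Pcsk1 (3.71), the carbonic anhydrase gene Car15 (3.63), the protease gene Bace2 (3.26) and G6pc2 (3.09) followed. The genes lower than in glucagon cells included Gal (-2.20), Rbp4 (-2.09), Pappa2 (-1.85), Etv1 (-1.79), the oxytocin receptor gene Oxtr (-1.77) and Pdk4 (-1.75), a kinase of pyruvate dehydrogenase.

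The Ins2+Gcg+ cells were last set against a weighted sum of the mean insulin cell and the mean glucagon cell, weighted in each library so that Gcg matched. Of 2971 genes, 0 were at least 1.5-fold higher (0%) and 3 at least 1.5-fold lower (0.101%) in all 4 libraries. By direction alone, 113 were higher (3.8%) and 529 lower (17.8%), against 470 and 471 of 4768 when the hormone genes were left out of the total. Xbp1, the gene deleted in the study, stood at 74.6, 102, 64.1 and 107 CPM in Ins2+Gcg+ cells and at 71.9, 103, 76.2 and 103 CPM in the weighted sum. Counts at the gene's end need not follow the deletion, and no genotype was read from them.

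The 3 genes below the sum were AY036118, Gal and Rbp4. AY036118, a transcript known to collect ribosomal RNA reads, stood at 210, 240, 238 and 364 CPM in Ins2+Gcg+ cells and at 457, 564, 459 and 862 CPM in the sum (median log2 ratio -1.14). Gal, which encodes the neuropeptide galanin, stood at 5.63, 4.24, 0.957 and 5.34 CPM in Ins2+Gcg+ cells and at 56.6, 15.5, 13.6 and 20.5 CPM in the sum (-1.05). Rbp4, retinol binding protein and a marker of delta cells, stood at 270, 276, 388 and 273 CPM in Ins2+Gcg+ cells and at 573, 450, 861 and 477 CPM in the sum (-0.92). The rule kept Sst low in the Ins2+Gcg+ cells only. With Sst under 1% in all classes, Rbp4 turned to a median log2 ratio of 0.51, Gal (-1.04) no longer passed in every library and AY036118 (-1.18) still did. With CPM averaged over cells, Gal (-1.07) passed, while AY036118 (-0.87, and 0.41 in 1 library) and Rbp4 (-0.62) did not.

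Gm42418 and Malat1 were also below the sum in all libraries without reaching the limit. The transcript Gm42418, which also collects ribosomal RNA reads, had a median log2 ratio of -0.57, and Malat1 had -0.48. Malat1 stood at 14102, 10295, 15545 and 11216 CPM in Ins2+Gcg+ cells and at 18243, 15735, 22284 and 15224 CPM in the sum. The largest ratios above the sum were small: Car15 had 0.47, the zinc finger gene Zc3h3 0.36 and Gjd2, the connexin of beta cell gap junctions, 0.33.

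**Figure D5:**
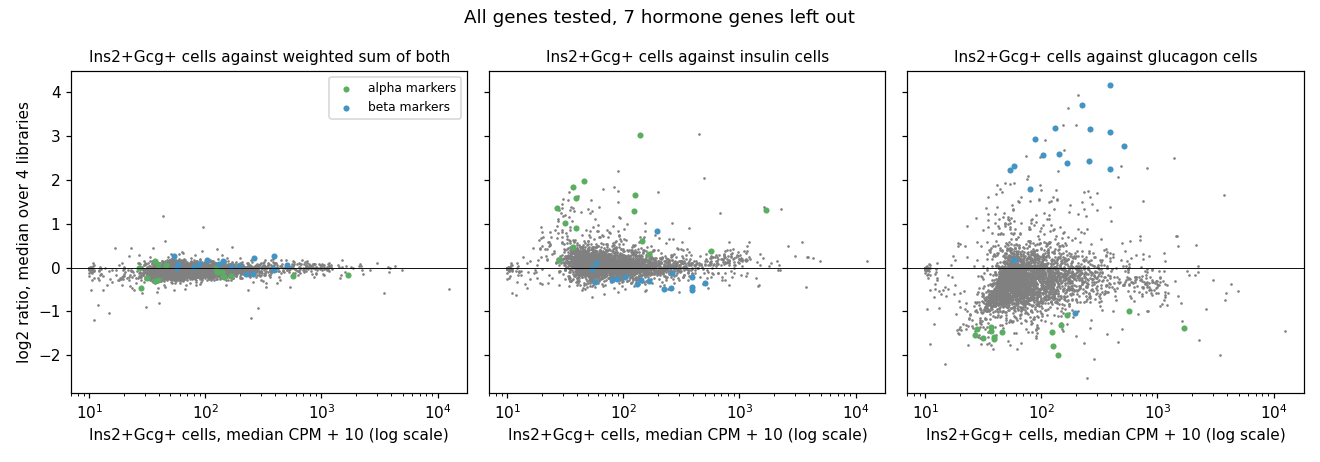
Median log2 ratio over 4 libraries (y axis) against median CPM + 10 in Ins2+Gcg+ cells (x axis, log scale) for each gene tested, with alpha markers in green and beta markers in blue; the panels set Ins2+Gcg+ cells against the weighted sum, insulin cells and glucagon cells. Beta markers reach 4.16 against glucagon cells, while alpha and beta markers lie near 0 against the weighted sum.

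Of the gene lists, alpha and beta markers were counted first. Against insulin cells, of 17 measured beta markers 1 was higher and 7 lower in all 4 libraries (median log2 ratio -0.29), against 23% and 10.5% of all genes (0.05). Against the weighted sum, 0 of 10 alpha markers were higher and 4 lower (-0.19), and of 17 beta markers 2 were higher and 0 lower (0.06), against 3.8% and 17.8% of all genes (-0.05). With CPM averaged over cells, 0 of 12 alpha markers were higher and 0 lower than the sum, against 127 and 452 of 3411 genes. Counts of alpha markers against insulin cells and of both lists against glucagon cells are not given, since some of these genes passed the filter on low levels only through the side where they are high. None of the alpha or beta markers reached 1.5-fold against the sum in all libraries.

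Genes of the unfolded protein response, the pathway that Xbp1 serves, were near their level in the weighted sum. Of 18 measured sensors and chaperones, 0 were higher and 6 lower in all 4 libraries (median -0.11), against 3.8% and 17.8% of all genes. With CPM averaged over cells 1 was higher and 0 lower, against 127 and 452 of 3411 genes. Hspa5, the main chaperone of the endoplasmic reticulum, stood at 974, 762, 552 and 947 CPM in Ins2+Gcg+ cells, against 840, 937, 841 and 1037 CPM in insulin cells and 953, 984, 846 and 979 CPM in glucagon cells. It was higher than in both classes in library 1 only. Against glucagon cells 2 of the 18 were higher and 7 lower (-0.17), against 9.96% and 52.6% of all genes, a median that turned to 0.25 with the hormone genes left out of the total. Against insulin cells 2 were higher and 4 lower (-0.14), against 23% and 10.5% of all genes. With the hormone genes left out of the total, 0 of 19 were higher and 7 lower than in insulin cells (-0.23), against 703 and 952 of 4831 genes.

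Genes downstream of the kinase PERK and its factor ATF4 included some with more RNA than in glucagon cells and less than in insulin cells. Atf5, a factor of this branch, stood at 219, 217, 241 and 222 CPM in Ins2+Gcg+ cells, against 40.8, 64.4, 59.8 and 65.7 CPM in glucagon cells, and at 246, 247, 283 and 264 CPM in insulin cells. Trib3, a pseudokinase of the same branch, stood at 47.8, 67.1, 64.1 and 65.1 CPM in Ins2+Gcg+ cells, against 4.78, 10.5, 7.70 and 8.02 CPM in glucagon cells, and at 57.7, 81.6, 73.0 and 87.0 CPM in insulin cells. Of 11 measured genes of this branch, 0 were higher and 4 lower than in insulin cells (-0.18), and 1 was higher and 0 lower than the sum (0.04), or 5 and 0 of 13 with the hormone genes left out of the total. Genes of hormone processing were split: 3 of 9 were higher and 3 lower than in insulin cells (0.03), and 0 higher and 2 lower than the sum (-0.06). Over all genes these shares were 23% higher and 10.5% lower than in insulin cells, and 3.8% higher and 17.8% lower than the sum, or 470 and 471 of 4768 with the hormone genes left out.

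Markers of endothelial cells and leukocytes were rare in Ins2+Gcg+ cells, and those of ducts, a list that includes Spp1, were not. Endothelial markers reached 0.5% of UMIs in 0, 0, 0 and 1 of them in libraries 1 to 4, leukocyte markers in 0, 1, 0 and 0, mesenchymal markers in 1, 0, 0 and 0, and acinar markers in 3, 0, 0 and 0. The acinar markers summed to 1213 CPM in Ins2+Gcg+ cells of library 1, against 2287 CPM in insulin cells, of which 1 of 615 reached that level. Ductal markers reached it in 10, 5, 8 and 9 Ins2+Gcg+ cells, and in 372 of 615, 154 of 3343, 412 of 800 and 254 of 2269 insulin cells. The ductal list summed to 11860, 971, 6764 and 2236 CPM in Ins2+Gcg+ cells of libraries 1 to 4. Of this, Spp1, the osteopontin gene, gave 10289, 415, 5931 and 1557 CPM. In insulin cells Spp1 stood at 12118, 784, 9277 and 1686 CPM. By summed UMIs Spp1 was thus lower than in the insulin cells of the same library in all 4. By the median of single cells it was lower in libraries 1 and 3, at 0.706% and 0.206% of UMIs against 0.812% and 0.475%. It was higher by that median in libraries 2 and 4, at 0.00664% and 0.0147% against 0.00351% and 0.00634%. In library 1 some other genes were higher than in insulin cells. The ductal keratin gene Krt18 stood at 601 CPM in Ins2+Gcg+ cells, against 218 CPM in insulin cells. The collagen gene Col3a1 stood at 152 CPM, against 7.01 CPM. Their part in the results of library 1 was not tested. Of 7 RNA quality genes, 4 were higher and 0 lower than in insulin cells (median log2 ratio 0.21), against 23% and 10.5% of all genes. Against glucagon cells 1 was higher and 6 lower (-0.53), against 9.96% and 52.6% of all genes (-0.33), and against the sum 0 were higher and 2 lower (-0.05), against 3.8% and 17.8%.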

How the data were processed

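The authors deposited 1 matrix of raw UMI counts for 32285 genes, made with Cell Ranger 6.1.2 on build mm10 per the submitters' processing notes; the annotation is not named in the sources used here. Doublets were not removed and no doublet caller was run. Libraries held 82963911, 178396311, 85266513 and 110800927 UMIs. Of 19942 barcode sequences, 45 occurred in more than 1 library, and 0 of them belonged to Ins2+Gcg+ cells. The members, the 16 gene lists and the comparisons were chosen with earlier results of these data known.

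UMIs of each class were added up within a library and scaled to CPM, with 1 row per symbol. Calls needed the same direction in all 4 libraries. Named genes were the 12 largest median log2 ratios each way with 1 sign in all libraries, hormone genes left out, and alpha and beta markers with at least 50 UMIs. Of 190 list genes, 1 was not found. Some genes are not reported here by name. The alpha factors counted per cell were chosen after the data were seen. Intervals are exact at 95%. The ratio, sum and call steps were tested on simulated data, for the comparison with the weighted sum only. The position step was not tested in this way. Python 3.11.15, numpy 2.4.6, scipy 1.17.1, pandas 2.3.3 and matplotlib 3.10.9 were used. Alternatives covered the thresholds, the cell filter, the scaling, the pseudocount, the filter on low levels, the thinning depth and each library in turn.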

Additional observations from a re-analysis of the deposited data

Results flagged for a closer look

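Cells outside the Ins2+Gcg+ class also carried both hormones. With Ins2 at 5% or more and Gcg at 1% or more, but Sst at 1% or more as well, there were 12, 17, 13 and 11 cells in libraries 1 to 4, which no comparison used. Among barcodes that the cell filter removed, 5, 1457, 5 and 88 passed both hormone limits in libraries 1 to 4, of 494, 2222, 553 and 572 removed. In library 2 these 1457 barcodes (65.6% of those removed) had medians of 604 UMIs and 241 genes, and all 4 libraries' removed barcodes lie outside the measurements above.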

How the results depend on the processing

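Of the summary results, 88 recomputed values stayed within 1.5 times or 1 SD over libraries and 21 did not. Requiring Gcg at 5% left 159 cells and a UMI ratio to pair sums of 0.626 (0.798 as reported, the median over libraries). The pair sums still needed only 1% Gcg, so this ratio set cells and sums chosen at unlike limits side by side. With Gcg at 5% the alpha marker position was 0.302 (0.213 as reported). At that limit 19 genes were higher than insulin cells, 36 lower than glucagon cells and 5 below the weighted sum. Leaving the hormone genes out of the total gave an alpha position of 0.319, 19 genes higher than insulin cells, and 118 higher and 38 lower than glucagon cells. Averaging each cell's CPM gave alpha and beta positions of 0.290 and 0.301 (beta 0.202 as reported), 17 genes higher than insulin cells, 37 lower than glucagon cells and 1, Gal, below the sum. With Sst under 1% in all classes 1 gene, AY036118, was below the sum, and Rbp4 against the sum turned to 0.51. A pseudocount of 1 gave 102 genes lower than glucagon cells, and no filter on low levels gave 19 higher than insulin cells. Thinning to 2000 UMIs left beta factors in 58.0% of cells (80.7% as reported). Leaving out 1 library gave 9 to 16 genes higher than insulin cells and 66 to 113 lower than glucagon cells. A call then needed the limit in fewer libraries, which is easier to pass. The cause was not tested for any of these. Restricting all classes to cells with at least 10000 UMIs, chosen after seeing the data, left 225 Ins2+Gcg+ cells and every other summary result within those limits. Of 792 recomputed values of named genes, 5 changed sign. No paired analysis was possible because the libraries carry no sample or replicate label. The 17 and 21 cells of libraries 1 and 3 limit precision, Irx2 there resting on 15 and 42 UMIs.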

Other observations

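Some Ins2+Gcg+ cells also carried pancreatic polypeptide. Ppy reached 1% of UMIs in 3 of 17, 7 of 187, 1 of 21 and 5 of 75 of them in libraries 1 to 4. Among insulin cells it did so in 5 of 615, 27 of 3343, 10 of 800 and 11 of 2269. Among glucagon cells it did so in 13 of 273, 72 of 820, 34 of 328 and 68 of 761. The share of Ins2+Gcg+ cells, resting on few cells, was above that of insulin cells in every library. It was below that of glucagon cells in libraries 2, 3 and 4. Genes of immature or dedifferentiated cells were mixed: of 8 measured, 3 were higher and 1 lower than in insulin cells in all libraries (median log2 ratio -0.04), and of 7 measured 0 were higher and 3 lower than the weighted sum (-0.15). Over all genes, 23% were higher and 10.5% lower than in insulin cells, and 3.8% higher and 17.8% lower than the sum. Immediate early genes were neither higher nor lower than in insulin cells in all libraries for any of 11 measured (0.15), and 2 of 11 were lower than the sum (-0.16). Of 2 measured proliferation genes, 1 was higher than in insulin cells (0.22) and 1 lower than the sum (0.01).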
